A study of Mus musculus with 60 samples.

Results

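LG/J and SM/J are inbred mouse strains that were bred for opposite body sizes, LG/J for large and SM/J for small. Their cortex was compared here on 4 of the 60 arrays of a survey of 30 inbred strains. Each strain had 1 array from mice that drank water (0 mg/kg of fluoxetine per day) and 1 array from mice given 18 mg/kg of fluoxetine, a serotonin reuptake inhibitor, per day by mouth for 21 days. The mice were males of 10 to 11 weeks, carried no transgene, and the RNA of 3 of them was pooled for each array. The other 56 arrays came from 28 further strains handled in the same way. LG/J minus SM/J was estimated in a linear model of all 60 arrays with strain and treatment as terms, and a gene was kept when the 2 strains differed in the same direction under water and under fluoxetine. Because each body size was represented by 1 strain, a difference tied to size cannot be told apart from any other difference between these strains.

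The pair has a long use in genetics. Crosses of LG/J with SM/J have served to map loci for growth, fat storage and skeletal size, and LG/J is also the main ancestor of MRL/MpJ, a strain known for ear wound closure and autoimmunity. Body growth after birth is driven mainly by pituitary growth hormone, which acts on its receptor in liver and other tissues and raises insulin-like growth factor 1. Binding proteins hold the insulin-like growth factors, and the insulin pathway and mTOR carry the signal inside cells. The cortex is not where that axis is set, so its arrays show how these genes differ in 1 brain region of adults.

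The 4 arrays were alike in overall quality. Pearson's r over the tested genes was 0.997 between the 2 LG/J arrays, 0.996 between the 2 SM/J arrays and 0.975 to 0.978 across strains. Median intensities were 40.5 and 41.7 in LG/J and 39.5 and 39.1 in SM/J, where all 60 arrays spanned 39.1 to 43.1. The 3'-to-5' difference of Actb was 1.25 to 1.46 on the log2 scale in the 4 arrays and 1.17 to 1.58 in the other 56. The lowest value that the table holds is a log2 intensity of 2.07, and 29.1% to 29.2% of probe sets lay within 0.01 of it, so a gene at or near 2.07 has no measured level and its difference is only a lower bound. The median gene was 0.10 higher in LG/J on the log2 scale (0.09 under water and 0.10 under fluoxetine), and every count below has to be read against that shift.

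Of 11886 genes tested, 4602 (38.7%) differed between LG/J and SM/J at an adjusted p under 0.05 in the same direction under both treatments. In LG/J, 3171 (26.7%) were higher and 1431 (12%) were lower, so 68.9% of the called genes were higher in LG/J. That split followed the scaling: it was 59.5% after quantile normalization, and 49.4% of 3893 called genes when each array was centred on the median of its tested genes. Differences of at least 2-fold were called for 447 genes (3.76%), 232 higher and 215 lower in LG/J, and 90 genes reached 4-fold, 47 higher and 43 lower. A further 13 called genes changed sign between the treatments and were left out. With 1 of the 4 arrays removed that rule could not be applied, so such counts here and below do not use it. The count was 2741 without the LG/J fluoxetine array and between 3202 and 3683 without any 1 of the other 3 arrays. A fit of the 4 arrays alone called 1186 genes.

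Set against the mean of the other 29 strains, LG/J had the most called genes of the 30 (4390) and SM/J ranked 10 with 2725, where the strains spanned 1455 to 4390 with a median of 1986. Against the mean of the other 28 strains, 4304 genes (36.2%) differed in LG/J and 2642 (22.2%) in SM/J. These counts were 1355 for LG/J without its fluoxetine array and 2681 without its water array, and 1458 and 1018 for SM/J without its water or its fluoxetine array. Of the 447 genes at least 2-fold apart, 218 had both strains away from the other 28, on opposite sides for 204 of them. LG/J alone was apart for 117 and SM/J alone for 94, and 18 had neither strain apart. LG/J lay beyond all 28 strains for 129 of the 447 and SM/J for 121. To count as above all 28, the strain itself had to reach a log2 value of 4. To count as below them, the lowest of the 28 had to reach 4, since values under it have no order. Among the 435 pairs of strains the LG/J and SM/J pair ranked 8 by the number of genes called with no rule on sign, 4615, where pairs spanned 356 to 5687 with a median of 2010. LG/J was part of 3 of the 7 pairs ranked above it. Shared controls mean that these comparisons are not independent of each other.

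Among the 15 largest differences higher in LG/J, SM/J was low against the panel for some genes and LG/J was high against it for others. Cstf3, a subunit of the factor that cleaves the 3' ends of mRNAs, read 9.39 and 9.49 in LG/J and 3.31 and 3.93 in SM/J on the log2 scale (water, then fluoxetine, the order used throughout). The other 28 strains lay between 9.14 and 9.84, so SM/J was the strain apart, and LG/J minus SM/J was 5.82 ± 0.12 (SE of the fit, adjusted p = 1.13e-27). Armc10, which acts on mitochondrial shape and movement, read 9.07 and 9.06 in LG/J against 5.24 and 5.01 in SM/J, with all 28 other strains at 8.74 to 9.18. Ctr9, a subunit of the PAF1 complex that travels with RNA polymerase II, read 9.60 and 9.67 against 5.99 and 5.95, and Npl, a lyase of sialic acid breakdown, 6.43 and 6.38 against 2.65 and 3.36. For these 4 genes SM/J was below every other strain of the panel.

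Reep3, Sbsn and Mrs2 shared the low SM/J value with a few strains. Reep3, which shapes the endoplasmic reticulum, read 10.13 and 10.22 in LG/J and 4.59 and 5.06 in SM/J, and 2 of the 28 strains were lower still. Sbsn, known as a protein of the epidermis, read 8.50 and 8.42 against 2.84 and 2.96, and 3 of the 28 strains were also under a log2 value of 4. Mrs2, the magnesium channel of the inner mitochondrial membrane, read 10.17 and 10.12 against 6.01 and 6.25, with 1 strain below SM/J.

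For other genes LG/J was the high strain. Lrg1, a secreted glycoprotein that modulates TGF-beta signalling in vessels, read 8.08 and 8.47 in LG/J and 5.07 and 4.57 in SM/J. The highest of the 28 strains was MRL/MpJ at 7.40. Smpdl3b, a sphingomyelinase-like membrane enzyme, read 5.24 and 6.48 against 2.44 and 2.56, and the 28 strains ended at 4.72. Sdc4, a heparan sulfate proteoglycan of the cell surface, read 10.75 and 10.77 against 7.41 and 7.36, where the strain median was 7.79 and MRL/MpJ read 10.59. Hspb6, a small heat shock protein, read 6.82 and 7.21 against 3.18 and 2.88, with 27 strains below LG/J. The largest value of all belonged to Gm13306, a predicted gene, with 13.87 and 13.95 in LG/J and 3.80 and 3.05 in SM/J, a difference of 10.49 ± 0.49 (adjusted p = 7.11e-18). It varied across the panel from 2.79 to 14.07, and its neighbour Gm21953 was also higher in LG/J, by 3.29. 4930578G10Rik was at the lowest value of the table in both SM/J arrays and read 7.31 and 7.43 in LG/J. Rbm45 (4.20 higher) and Gm5089 (3.66 higher) complete the 15.

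**Figure D1:**
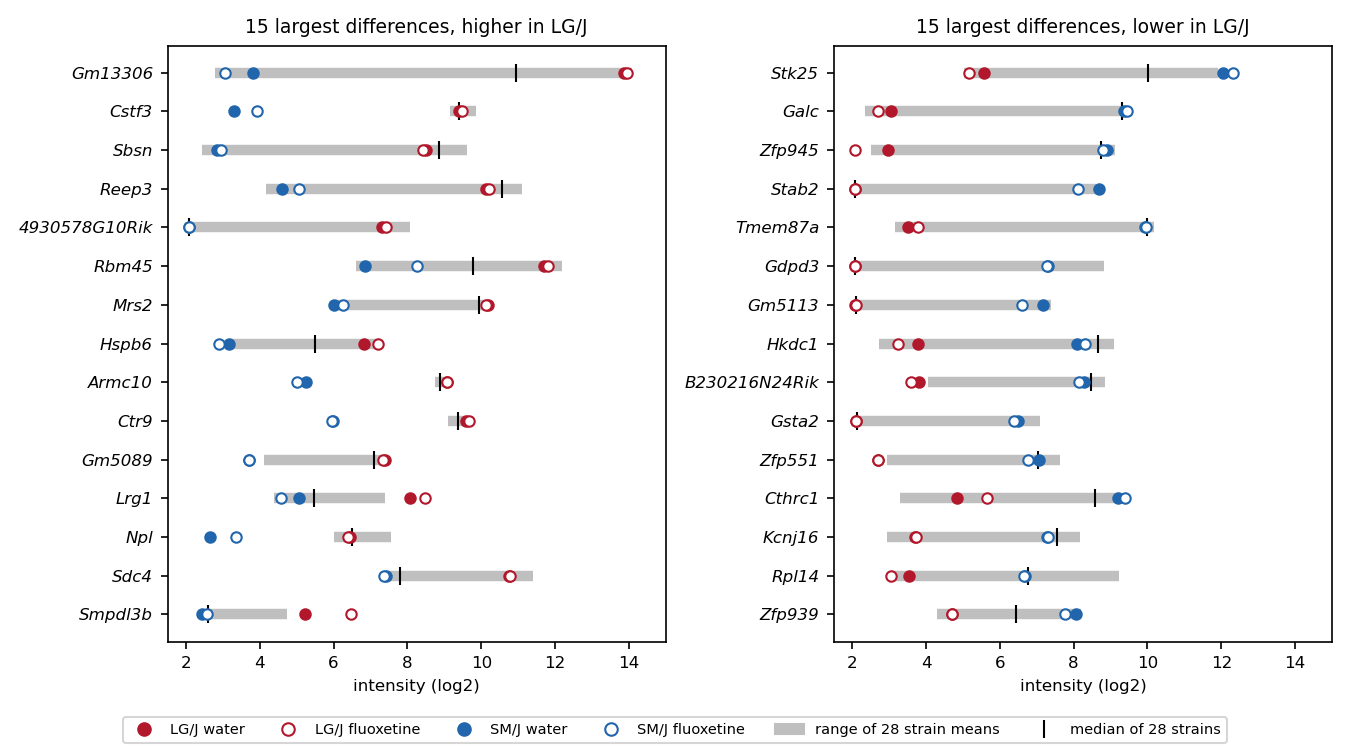
Log2 intensity (horizontal axis) of the 15 largest called differences in each direction, with filled circles for water, open circles for fluoxetine, a grey bar for the range of the 28 other strain means and a black tick for their median. The 2 arrays of a strain lie close together beside the gap between strains, and for Cstf3, Armc10, Ctr9 and Npl the SM/J circles fall left of the whole grey bar.

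Among the 15 largest differences lower in LG/J, several genes were near the table's lowest value in LG/J and well expressed in most strains. Galc, the lysosomal enzyme that degrades galactosylceramide of myelin and whose loss causes Krabbe disease, read 3.04 and 2.71 in LG/J and 9.37 and 9.45 in SM/J, a difference of -6.54 ± 0.20 (adjusted p = 4.77e-23). The strain median was 9.30, and 11 of the 28 strains were also under a log2 value of 4. Tmem87a, a Golgi membrane protein, read 3.52 and 3.78 against 9.94 and 9.97, and MRL/MpJ was low too, at 3.30. Hkdc1, a hexokinase family member, read 3.79 and 3.25 against 8.10 and 8.32 and was also under 4 in 1 strain. Kcnj16, a potassium channel of glia, read 3.70 and 3.72 against 7.29 and 7.29, and MRL/MpJ was low too, at 2.94. The zinc finger genes Zfp945 (6.34 lower), Zfp551 (4.22 lower) and Zfp939 (3.21 lower), the unannotated transcript B230216N24Rik (4.51 lower) and the probe set for the ribosomal protein gene Rpl14 (3.38 lower) were also in this set. B230216N24Rik in LG/J lay below all 28 strains, and 8 strains for Zfp945 and 2 for Zfp551 were also under 4.

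The remaining genes of this set read high in SM/J, and the rest of the panel varied. Stk25, a kinase of the STRIPAK complex, read 12.05 and 12.32 in SM/J, above all 28 strains, and 5.57 and 5.15 in LG/J, where 4 strains were lower. This was the largest difference in that direction, -6.82 ± 0.25 (adjusted p = 8.29e-21). Stab2, a scavenger receptor that clears hyaluronan in sinusoidal endothelium, was at the lowest value of the table in both LG/J arrays and in the median strain, and read 8.68 and 8.13 in SM/J. Gdpd3, a lysophospholipase D, was at 2.07 in both LG/J arrays and read 7.29 and 7.28 in SM/J, and 20 of the 28 strains were under a log2 value of 4. Gsta2, a glutathione transferase, read 6.49 and 6.39 in SM/J, above 27 strains, and 2.09 and 2.11 in LG/J. Cthrc1, a secreted protein of wound repair, read 9.20 and 9.38 in SM/J and 4.83 and 5.65 in LG/J, and 1 of the 28 strains was under 4. Gm5113 (4.79 lower in LG/J) was near the lowest value in LG/J and in the median strain, and 21 of the 28 strains were under 4.

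Other probe sets of a gene did not always follow the one used, which was the one with the highest mean. Of the 447 genes at least 2-fold apart, 179 had 305 other probe sets, of which 210 (68.9%) had the same sign, 135 (44.3%) were called in the same direction and 35 were called in the opposite one. Over all tested genes the first 2 shares were 58.4% and 19.6%. The other set agreed in direction for Sbsn (4.74 higher), B230216N24Rik (4.50 lower) and Kcnj16 (3.65 lower), and 3 of the other 4 sets of Reep3 were 0.61 to 5.69 higher. Ctr9 was 1.37 and 0.82 higher in a pair of its other sets, and 0.14 and -0.51 in the rest, which were not called. Another set of Galc was 2.02 higher in LG/J, 1 of Zfp945 0.90 higher, the other of Cstf3 0.53 lower and the other of Sdc4 0.37 lower, each against the direction of the set used. Whether sequence differences under the probes contribute was not tested.

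Few growth hormone and IGF genes were called, and the share called higher in LG/J was near that of all genes. Of 33 genes in the list 21 were tested, and 6 were higher in LG/J and none lower. That is 28.6% higher against 26.7% of all genes, and 0% lower against 12%. The called share was 28.6% against 38.7% of all genes, and the median difference was 0.21 against 0.10 for all genes. Igf2, a fetal growth factor that adult brain makes mainly in meninges and choroid plexus, read 10.60 and 10.90 in LG/J and 8.78 and 9.42 in SM/J. LG/J was above all 28 strains and SM/J below all of them, and the difference was 1.65 ± 0.50 (adjusted p = 0.00958). Igfbp2, the main binding protein of adult brain fluid, read 10.53 and 10.79 against 9.57 and 9.99 (0.88 ± 0.27, adjusted p = 0.00919). Igfbp5 was 0.57 higher and Igfbp6 0.33 higher. Jak2, the kinase bound to the growth hormone receptor, read 10.17 and 10.35 against 9.97 and 9.64 (0.45 ± 0.11, adjusted p = 0.0013) and was above all 28 strains in LG/J. Sstr4, a receptor for somatostatin, read 10.89 and 10.98 against 10.51 and 10.59 (0.39 ± 0.09, adjusted p = 0.00125).

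The growth factor itself and its receptors were not called in the probe sets used. Igf1 read 8.33 and 8.18 in LG/J and 8.42 and 8.43 in SM/J (-0.17 ± 0.13, adjusted p = 0.32), inside the range of 7.75 to 8.95 in the other strains. Igf1r read 10.09 and 10.29 against 10.07 and 9.90 (0.20 ± 0.10, adjusted p = 0.119). Another set of Igf1r, at 10.12 in LG/J and 9.74 in SM/J on average, was 0.38 higher in LG/J (adjusted p = 0.0048 over all probe sets). The remaining sets of Igf1r ran from -0.14 to 0.24 and were not called. Ghr, the growth hormone receptor, read 7.92 and 7.99 against 7.90 and 7.60 (0.21 ± 0.20, adjusted p = 0.449). Irs2, an insulin receptor substrate, differed by 0.16 ± 0.18 (adjusted p = 0.527), although LG/J was 0.46 above the mean of the 28 strains (adjusted p = 0.00772). Hmga2, whose loss makes pygmy mice, was below the level needed for the test, and Mc4r has no probe set with a name of its own here.

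Markers of the meninges, the membranes over the cortex, moved with the same comparison. The 9 meningeal markers, Igf2 among them, averaged 8.90 and 9.43 in LG/J and 7.47 and 8.46 in SM/J, against 7.31 to 9.43 in the other 56 arrays. All 9 differences were above 0 and 4 were called as higher in LG/J (Igf2, Col1a2, Dcn and Ptgds). With the mean of the other 8 markers as a covariate, a setting chosen after the data were seen, the differences were 0.76 for Igf2 (adjusted p = 0.195), 0.31 for Igfbp2 (0.236), 0.38 for Igfbp5 (0.117) and 0.28 for Igfbp6 (0.0984). Jak2 (0.40, adjusted p = 0.0122) and Sstr4 (0.37, adjusted p = 0.00765) kept their call, and Igf1 became -0.35 (adjusted p = 0.0415). In bulk tissue more cells of a type and more RNA per cell cannot be told apart. The list counted 2 called members without the LG/J fluoxetine array, 3 without the SM/J water array, 4 without the SM/J fluoxetine array and 6 without the LG/J water array, and 2 higher and 1 lower with the covariate. Igf2 and Igfbp2 lost the call without the LG/J fluoxetine array (adjusted p = 0.123 and 0.122) or the SM/J water array (0.165 and 0.159), and Jak2 without the SM/J fluoxetine array (0.0909). Igfbp6 lost it without the LG/J water array (0.0984), the LG/J fluoxetine array (0.0646) or the SM/J water array (0.177), and with centred arrays (0.082). Igfbp5 lost it without either fluoxetine array (0.0608 and 0.0571).

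**Figure D2:**
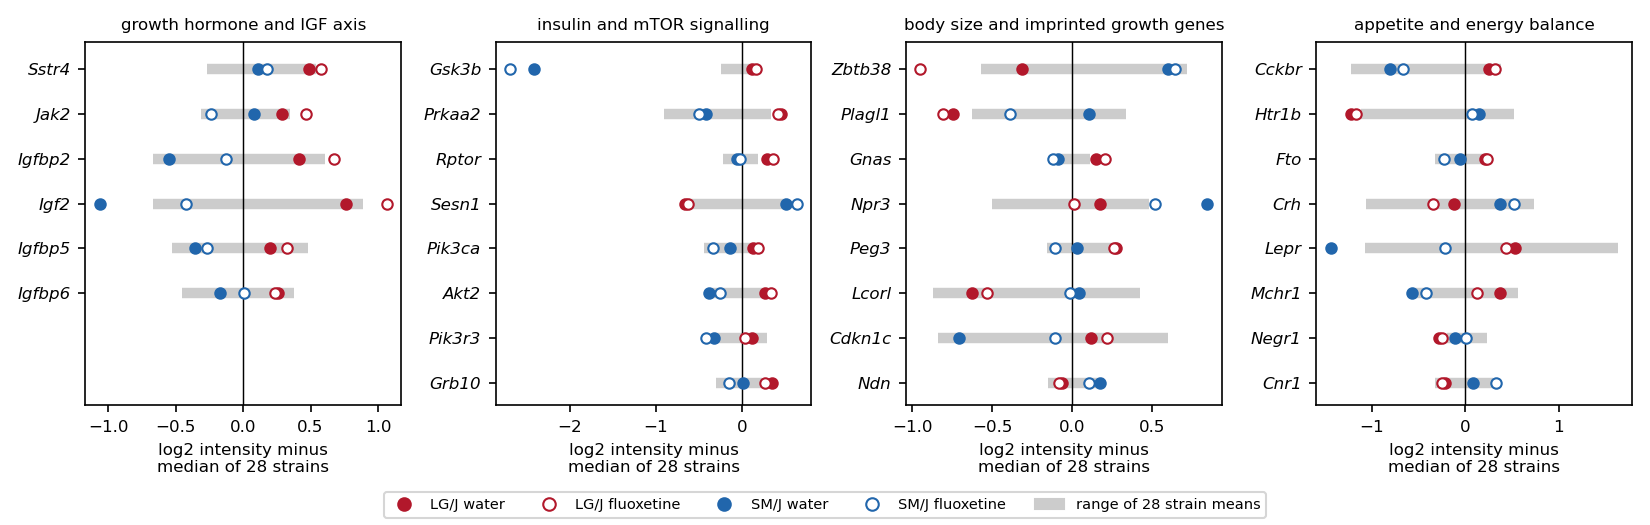
Log2 intensity minus the median of the 28 other strains (horizontal axis, own scale in each panel) for the called members of 4 growth-related lists, up to 8 each, with filled circles for water, open circles for fluoxetine and a grey bar for the range of the 28 strain means. All 6 growth hormone and IGF genes have LG/J to the right of SM/J, and the Gsk3b probe set used in SM/J stands far left of its grey bar, which its other 5 sets did not follow.

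Genes of insulin and mTOR signalling were called in 14 of 38 tested cases (36.8%, against 38.7% of all genes). Of these 12 were higher and 2 lower in LG/J, and the list's median was 0.13. Akt2, a kinase downstream of insulin, read 9.91 and 9.98 in LG/J and 9.26 and 9.39 in SM/J (0.62 ± 0.13, adjusted p = 0.000318). Other sets of Akt2 gave 0.01 and 0.35 and were not called. Rptor, the scaffold of mTOR complex 1, read 9.39 and 9.47 against 9.05 and 9.08 (0.37 ± 0.06, adjusted p = 1.01e-05) and was above all 28 strains in LG/J. Pik3r3, a regulatory subunit of PI3 kinase, was 0.44 higher, and Grb10, an imprinted adaptor that restrains insulin and IGF signalling, was 0.38 higher. Sesn1, a stress protein that restrains mTOR complex 1, read 10.51 and 10.53 against 11.67 and 11.80 (-1.21 ± 0.22, adjusted p = 6.28e-05), and SM/J was above all 28 strains. Other sets of Sesn1 ran from -0.48 to 0.14. With centred arrays the split was 8 higher and 5 lower, and without the LG/J fluoxetine array 7 higher and 1 lower. It was 8 and 2 without the SM/J water array.

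For 3 further members of that list another probe set was called in the opposite direction. Gsk3b, a kinase that insulin switches off, read 12.36 and 12.41 in LG/J and 9.84 and 9.56 in SM/J in the set used, 2.68 higher, but its other 5 sets lay between -0.41 and 0.22. Prkaa2, the catalytic subunit of the energy sensor AMPK, was 0.89 higher in the set used and 0.85 and 1.69 lower in the others, and the mean of all 3 gave -0.55. Pik3ca, the catalytic subunit of PI3 kinase, was 0.39 higher in the set used, -0.34 by the mean of its sets, and -1.19 in the set that differed most. No direction is given for these 3 genes, which are among the 12 counted as higher.

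Body size and imprinted growth genes were split, and their called share was near the 38.7% of all genes. Of 22 tested, 8 were called (36.4%), 3 higher and 5 lower in LG/J, with a median of 0.06 that is below the 0.10 of all genes, and 2 higher and 7 lower with centred arrays. The split was 4 and 3 without the LG/J water array, and 3 and 3 without the SM/J fluoxetine array or with the meningeal covariate. Zbtb38, a methyl-CpG binding repressor tied to human height, read 10.28 and 9.64 in LG/J and 11.19 and 11.23 in SM/J (-1.25 ± 0.23, adjusted p = 8e-05), with LG/J below all 28 strains. Other sets of Zbtb38 gave -0.83 and 0.13. Lcorl, a gene of the height locus shared by many mammals, read 9.27 and 9.37 against 9.95 and 9.89 (-0.60 ± 0.18, adjusted p = 0.00907), and its other 3 probe sets were 0.61, 0.62 and 0.91 lower. Plagl1, an imprinted growth regulator, was 0.64 lower and below all 28 strains in LG/J. Npr3, the clearance receptor for natriuretic peptides and a limit on bone growth signals, was 0.59 lower, with SM/J above all 28 strains. Gnas, the imprinted gene of the stimulatory G protein, was 0.28 higher, and Cdkn1c, an imprinted cell cycle inhibitor, 0.58 higher. Ndn was 0.21 lower. Cdkn1c (adjusted p = 0.55 without the SM/J water array and 0.185 without the LG/J fluoxetine array), Ndn (0.0937 to 0.185 without any 1 of the 4 arrays), Lcorl (0.0941 without the LG/J water array and 0.0604 without the SM/J fluoxetine array) and Npr3 (0.0504 without the SM/J water array) were not held by every array. With the meningeal covariate Lcorl (0.0556), Cdkn1c (0.144) and Ndn (0.156) were not called, nor was Cdkn1c with centred arrays (0.0619). Peg3, an imprinted gene of growth and maternal care, was 0.31 higher in the set used (0.0638 without the SM/J fluoxetine array) and -3.12 in another, so no direction is given for it, though it is among the 3 counted as higher.

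Appetite and energy balance genes were called in 8 of 23 cases (34.8%, against 38.7% of all genes), 4 in each direction. The median difference was 0.03. The split was 4 higher and 2 lower without the LG/J fluoxetine array and 2 and 4 without the SM/J water array. Cckbr, the brain receptor for cholecystokinin, read 11.61 and 11.68 in LG/J and 10.56 and 10.69 in SM/J (1.02 ± 0.10, adjusted p = 6.56e-10). Fto, a demethylase whose variants are linked to human obesity, was 0.36 higher. Lepr, the leptin receptor, read 5.75 and 5.65 against 3.78 and 5.00, 1.31 higher, but was 0.61 without the SM/J water array (adjusted p = 0.298) and 0.68 with the meningeal covariate (0.142). Mchr1, a receptor for melanin-concentrating hormone, was 0.74 higher, and the other probe sets gave 0.67 and 0.91. Without the LG/J water or the SM/J water array its adjusted p was 0.0802 and 0.089. Htr1b, a serotonin receptor that restrains release, read 7.56 and 7.61 against 8.92 and 8.85 (-1.30 ± 0.19, adjusted p = 3.53e-06), with LG/J below all 28 strains. Crh, the stress hormone releasing factor, was 0.68 lower, Cnr1, the cannabinoid receptor, 0.44 lower and Negr1, a neuronal adhesion gene of obesity loci, 0.21 lower. Crh lost its call without the LG/J fluoxetine array (0.0795), Cnr1 without either fluoxetine array (0.119 and 0.124) and Negr1 without the LG/J water or the SM/J fluoxetine array (0.0815 and 0.17) and with the meningeal covariate (0.0876). Npy, a peptide that drives feeding, read 11.99 and 11.96 against 12.18 and 12.50 and was not called (-0.36 ± 0.22, adjusted p = 0.202).

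Of the 9 thyroid genes tested, 2 (22.2%) were lower in LG/J and none higher, against 12% and 26.7% of all genes. Trhr, the receptor for thyrotropin-releasing hormone, read 5.14 and 4.89 against 5.96 and 6.05 (-0.99 ± 0.22, adjusted p = 0.000596). Klf9, a thyroid hormone target, was 0.31 lower in the set used, and its other sets ran from -1.16 to 0.21. Of the 18 cell cycle genes tested, 3 were higher and 2 lower, and 3 higher and 5 lower with centred arrays. In the main fit 27.8% of the cell cycle genes were called, against 38.7% of all genes. Rb1, the retinoblastoma tumour suppressor, read 10.13 and 9.93 against 10.73 and 10.93 (-0.79 ± 0.11, adjusted p = 2.7e-06), and LG/J was below all 28 strains. Mcm4, of the helicase that opens replication origins, was 1.24 lower in the set used and 0.25 higher in the other. Pcna, the clamp of DNA polymerase, was 0.27 higher, Mcm7 0.38 higher and Ccnd3, a D-type cyclin, 0.64 higher. Other sets of Mcm7 ran from -0.22 to 0.36. Ccnd3 lost the call without either fluoxetine array (0.331 for LG/J and 0.0639 for SM/J) and with the meningeal covariate (0.147).

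In 3 metabolic lists more genes were called higher in LG/J than lower, by small amounts, against 26.7% higher and 12% lower over all genes. Of 39 respiratory chain subunits tested, 24 were higher (61.5%) and 2 lower, with a median of 0.20. Cox6a1, a subunit of cytochrome oxidase, read 15.22 and 15.23 in LG/J and 14.82 and 14.74 in SM/J (0.44 ± 0.07, adjusted p = 6.24e-06). Atp5b, the catalytic subunit of ATP synthase, was 0.39 higher, Ndufb9, of complex I, 0.36 higher and Atp5a1 0.24 higher, and LG/J was above all 28 strains for the first 3 of the 4. Genes of glucose metabolism, which include glycolysis and pyruvate dehydrogenase, were 11 higher (44%) and 2 lower of 25 with a median of 0.18. Pfkm, the muscle-type phosphofructokinase, was 0.49 higher, Pgk1 0.39 and Eno2, the neuronal enolase, 0.33, each above all 28 strains in LG/J. Other sets of Pgk1 gave -0.09 and 0.17. Pdk2, which shuts pyruvate dehydrogenase, was 0.95 lower. Fatty acid and lipid genes were 21 higher (47.7%) and 3 lower of 44 with a median of 0.22. Dgat2, the last step of triglyceride synthesis, read 8.81 and 8.64 against 7.94 and 7.81 (0.86 ± 0.10, adjusted p = 3.11e-08), and SM/J was below all 28 strains. Elovl1, which lengthens saturated fatty acids, was 0.93 higher and Apoe, the lipid carrier of brain, 0.43 higher. Hadhb, of mitochondrial beta-oxidation, was -0.99 in the set used and 0.10 and -0.03 in its others.

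Those counts of higher genes shrank when the shift of the median gene was removed, and so did the count over all genes. With centred arrays 1922 of all 11886 tested genes were higher in LG/J and 1971 lower, where the main fit had 3171 and 1431. With centred arrays the splits were 16 higher and 3 lower for the respiratory chain, 6 and 4 for glucose metabolism, and 14 and 5 for lipids. Without the LG/J fluoxetine array they were 20 and 1, 7 and 1, and 10 and 2. The smallest count for glucose metabolism was 6 and 1, without the SM/J fluoxetine array.

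Lysosomal genes were 12 higher and 2 lower of 26 (53.8% called, against 38.7% of all genes), with a median of 0.23. Npc1, which exports cholesterol from lysosomes, read 9.59 and 9.76 in LG/J and 8.70 and 8.58 in SM/J (1.04 ± 0.11, adjusted p = 9.47e-09), with LG/J above and SM/J below all 28 strains. Man2b1, lysosomal alpha-mannosidase, was 0.88 higher and Lamp1, a membrane protein of lysosomes, 0.42 higher, and SM/J was below all 28 strains for both. Neu1 is the lysosomal sialidase, and SM/J is known for low activity of it. It read 9.03 and 9.07 in LG/J and 8.78 and 8.90 in SM/J and was not called (0.21 ± 0.10, adjusted p = 0.103). Its other probe set, at 4.14 in LG/J and 3.14 in SM/J on average, was higher in LG/J (adjusted p = 0.000368 over all probe sets). Lipa, lysosomal acid lipase, was 1.05 higher and stood next to Acta2 (1.32 higher) and Ifit2 (1.01 lower) in gene order. With centred arrays the lysosomal split was 8 higher and 3 lower, and 8 and 1 without the SM/J water array.

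Detoxification genes were 8 higher (27.6%) and 4 lower (13.8%) of 29, close to the 26.7% and 12% of all genes, and 5 higher and 8 lower with centred arrays and 3 higher and 3 lower with the meningeal covariate. Without the LG/J fluoxetine array the split was 4 and 3, and without the SM/J water array 4 and 2. Gstm2, a glutathione transferase, read 6.40 and 7.01 in LG/J and 4.26 and 4.84 in SM/J (2.16 ± 0.44, adjusted p = 0.000289) and was above all 28 strains in LG/J. Gpx3, the secreted glutathione peroxidase, read 5.51 and 6.04 against 6.65 and 6.83 (-0.96 ± 0.20, adjusted p = 0.000383), with SM/J above all 28 strains. Gsto1 was -0.59 in the set used (adjusted p = 0.0746 without the SM/J water array) and 0.28 in the other. Glo1, the glyoxalase whose gene copy number varies between strains, read 11.43 and 11.10 against 11.98 and 12.08 (-0.77 ± 0.14, adjusted p = 8.6e-05), and its other sets ran from -0.40 to 0.50. Alad, the second enzyme of haem synthesis and also known to vary in copy number, read 11.18 and 11.22 against 8.97 and 9.08 (2.17 ± 0.09, adjusted p = 9.56e-20). Its neighbour Hdhd3 read 7.97 and 7.73 against 5.72 and 5.97, 2.01 higher, and SM/J was below all 28 strains for both genes. Alad and Hdhd3 belong to a list of 15 tested genes known to vary between strains, of which 6 were higher and 3 lower in LG/J, and 4 and 4 with centred arrays.

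Glutamate receptor genes ran against the general shift. Of 24 glutamate receptor and transporter genes tested, 7 were lower in LG/J and 2 higher, with a median of -0.01 against 0.10 for all genes. These shares were 29.2% lower and 8.3% higher, against 12% and 26.7% of all genes. The number lower was 7 with centred arrays, with quantile normalization and with the meningeal covariate, and 6 or 7 without any 1 array. AMPA receptors carry most fast excitation, and 3 of their 4 subunits were lower. Gria1 read 11.61 and 11.68 in LG/J and 12.56 and 12.74 in SM/J (-1.01 ± 0.09, adjusted p = 5.24e-10), below all 28 strains in LG/J, and its other probe set was 0.76 lower. Gria3 was 0.78 lower. Gria2, the subunit that makes the channel impermeable to calcium, read 13.34 and 13.16 against 14.11 and 14.21 (-0.91 ± 0.13, adjusted p = 2.1e-06), with LG/J below and SM/J above all 28 strains, but its other sets gave 0.07 and -0.06. Of the kainate receptor subunits, Grik3 read 10.22 and 10.04 against 11.51 and 11.28 (-1.26 ± 0.20, adjusted p = 1.55e-05) and Grik1 was 0.91 lower. The NMDA subunit gene Grin2b (0.26 lower) and the metabotropic receptor gene Grm5 (0.32 lower) made up the 7. Grm4, a presynaptic metabotropic receptor, read 7.65 and 7.21 against 6.70 and 6.11 (1.02 ± 0.18, adjusted p = 5.25e-05) and Slc17a6, a vesicular glutamate transporter, was 0.54 higher.

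Inhibitory and serotonergic genes were split. Among the GABA genes 25% were called higher and 31.25% lower in LG/J, against 26.7% and 12% of all genes. Of 16 GABA genes tested, 4 were higher and 5 lower in LG/J, 2 and 6 with centred arrays, and 3 and 3 without the LG/J fluoxetine array. They were 2 and 5 without the LG/J water array, 2 and 4 without the SM/J water array, 4 and 3 without the SM/J fluoxetine array and 3 and 2 with the meningeal covariate. Gad1, which makes GABA, read 13.77 and 13.69 in LG/J and 14.11 and 14.15 in SM/J (-0.40 ± 0.09, adjusted p = 0.000867), with its other set 0.25 higher. Gabra2, a receptor subunit, was 0.92 lower in the set used and differed by 0.01 and -0.15 in the others. Gabbr1, of the GABA-B receptor, read 13.34 and 13.45 against 12.97 and 13.02, 0.40 higher and above all 28 strains in LG/J. Other sets of Gabbr1 were 0.08 and 0.25 higher and were not called. Slc32a1, the vesicular transporter of GABA, was 0.36 higher, with its other set at -0.02 and not called. Of 11 serotonin genes tested, 1 was higher and 3 lower (36.4% called, against 38.7% of all genes). Beside Htr1b these were Maoa, which degrades serotonin, at 9.28 and 9.21 against 8.80 and 8.68 (0.50 ± 0.09, adjusted p = 8.56e-05), with its other set 0.88 higher and SM/J below all 28 strains, and Maob and Htr1f. Maob was 0.25 lower and lost the call without either fluoxetine array (0.265 and 0.219) and with the meningeal covariate (0.0725). Htr1f read 2.13 and 2.57 against 3.60 and 3.39, both low, where the strain median was 5.58. The serotonin transporter Slc6a4 and the synthetic enzyme Tph2, which belong to the raphe neurons that project to cortex, were below the level tested.

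Immune genes differed in both directions. Of 13 MHC and antigen presentation genes tested, 6 were higher and 1 lower in LG/J, with a median of 0.46. That is 53.8% called, against 38.7% of all genes. H2-K1, a classical class I gene, read 9.53 and 9.64 in LG/J and 8.22 and 8.28 in SM/J, 1.34 higher, and H2-D1 read 10.48 and 10.66 against 8.61 and 8.49, 2.02 higher. The H2 genes differ in sequence between haplotypes and share probes with near copies, so these values are uncertain. The other 7 sets of H2-D1 gave differences from -0.05 to 6.64. H2-DMa, which loads class II molecules, was 0.82 higher, and H2-T24 read 3.59 and 3.38 against 5.05 and 4.03. H2-T24 lost its call without the LG/J fluoxetine (0.0806) or the SM/J water array (0.285). With centred arrays 3 members were higher and 1 lower, as with the meningeal covariate, and without the LG/J fluoxetine array, or without the SM/J water array, 3 and 0.

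Of 18 interferon response genes tested, 7 were higher and 2 lower, 4 and 2 with centred arrays, 3 and 1 without the LG/J fluoxetine array and 2 and 1 without the SM/J water array. With the meningeal covariate 2 were higher and 3 lower. In the main fit 50% of the interferon genes were called, against 38.7% of all genes. Irf3, a transcription factor of the response, read 8.62 and 8.68 in LG/J and 7.78 and 7.79 in SM/J (0.87 ± 0.13, adjusted p = 8.31e-06), above all 28 strains in LG/J, and its other set was 0.64 higher. Gbp3, a guanylate-binding protein, read 7.69 and 7.59 against 6.38 and 6.19 and was 1.35 higher. Its neighbours in gene order, Gbp2 (2.12 higher) and Gbp7 (1.97 lower), pointed in different directions. Ifitm2 was 1.11 higher, and lost the call without the LG/J fluoxetine (0.093) or SM/J water array (0.0938) and with the meningeal covariate (0.117). Ifit2 read 7.20 and 6.83 against 8.07 and 7.99 (-1.01 ± 0.13, adjusted p = 4.57e-07), with LG/J below all 28 strains.

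The C1q genes, the first component of complement, made in brain mainly by microglia, were all lower in LG/J. C1qb read 8.22 and 8.28 in LG/J and 10.46 and 10.94 in SM/J (-2.45 ± 0.28, adjusted p = 3.81e-08), its other sets were 1.14 and 1.86 lower, and LG/J was below all 28 strains. C1qc was 0.92 lower and C1qa 0.71 lower, and both lost the call without the SM/J fluoxetine array (0.0639 and 0.102). Of 10 microglial markers tested, 5 were lower in LG/J and none higher, namely these 3, Aif1 (1.20 lower) and Cx3cr1 (0.79 lower). The share lower was 50%, against 12% of all genes. The markers P2ry12 (0.05), Csf1r (0.05), Tmem119 (0.13), Itgam (-0.01) and Trem2 (0.62) were not called. Without the SM/J fluoxetine array 3 markers were lower. The 10 markers averaged 8.22 and 8.32 in LG/J and 8.72 and 8.88 in SM/J, in a range of 8.11 to 9.43 over the other arrays. Their part in the C1q result was not tested. Cr1l, a complement regulator, was 0.54 higher. Of the complement genes tested 55.6% were called, against 38.7% of all genes. In all, 2 of 9 complement genes were higher and 3 lower, and 3 and 1 without the SM/J fluoxetine array.

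Genes of matrix remodelling and repair were chosen because LG/J and MRL/MpJ close ear wounds. Of 25 tested, 9 were higher and 2 lower (44% called, against 38.7% of all genes), with a median of 0.21. The split was 5 and 3 with centred arrays, 4 and 0 with the meningeal covariate, 4 and 1 without the SM/J water array and 1 and 0 without the LG/J fluoxetine array. Timp3, an inhibitor of matrix metalloproteinases, read 10.59 and 10.85 in LG/J and 9.32 and 9.52 in SM/J (1.30 ± 0.15, adjusted p = 4.9e-08), its other 3 sets were 0.40 to 0.82 higher, and it was 0.93 higher with the meningeal covariate (1.58e-09). Mmp14, a membrane-bound metalloproteinase, was 0.57 higher and Sparcl1, a matrix protein of astrocytes, 0.24 higher, and both lost the call without the LG/J fluoxetine array (0.0861 and 0.0799). Egln1, the oxygen sensor that marks HIF for degradation, was 0.33 higher (0.0505 without that array).

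Some markers of vessels were called higher in LG/J, as were 4 of 9 of the meninges. Called higher were 55.6% of endothelial, 42.9% of pericyte and smooth muscle and 44.4% of meningeal markers, against 26.7% of all genes. The meningeal count of 4 was 1 without the LG/J fluoxetine array, 0 without the SM/J water array and 7 without the SM/J fluoxetine array. Of 9 endothelial markers, 5 were higher in LG/J and none lower, among them Slco1a4 (0.93 higher), Cdh5 (0.82 higher) and Cldn5 (0.47 higher), and their mean was 8.58 and 8.71 in LG/J and 8.16 and 8.13 in SM/J, in a range of 7.98 to 8.70 over the other arrays. The count was 2 without the LG/J fluoxetine array and 3 without either SM/J array, and 2 with the meningeal covariate. Of 7 pericyte and smooth muscle markers, Acta2 (1.32), Myh11 (1.63) and Tagln (1.60) were higher and Pdgfrb was 0.69 lower. None of the 3 smooth muscle genes was called without the LG/J fluoxetine or the SM/J water array, or with the meningeal covariate. Vessels and meninges reach the dissected cortex together, and the part of either in the gene results above, apart from the covariate values given, was not tested.

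**Figure D3:**
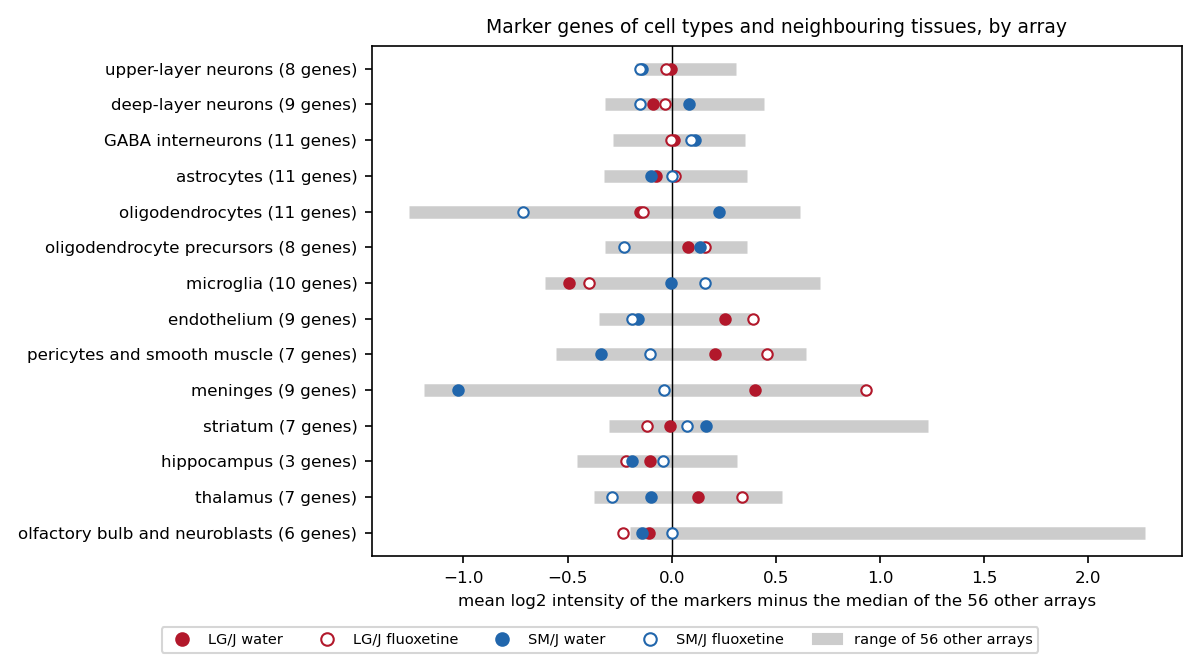
Mean log2 intensity of the tested markers of each cell type or neighbouring tissue, minus the median of the 56 other arrays (horizontal axis), with filled circles for water, open circles for fluoxetine and a grey bar for the range of those 56 arrays. Meninges, endothelium and pericytes lie further right in LG/J, microglia further left, and oligodendrocytes are low in the SM/J fluoxetine array alone (9.63 against 10.57 in the SM/J water array).

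Cortical neuron and astrocyte markers were present in all 4 arrays. Upper-layer markers averaged 10.82 and 10.80 in LG/J and 10.68 and 10.67 in SM/J, and astrocyte markers 11.59 and 11.68 against 11.57 and 11.67. Deep-layer markers averaged less, 8.09 and 8.15 against 8.27 and 8.03, inside the 7.87 to 8.63 of the other arrays. Single markers still differed. Gja1, the main connexin of astrocytes, read 12.92 and 12.88 in LG/J and 14.05 and 14.11 in SM/J (-1.17 ± 0.10, adjusted p = 1.33e-10), with LG/J below and SM/J above all 28 strains, and its other 5 probe sets were 0.27 to 1.53 lower. Tbr1, a transcription factor of deep-layer neurons, read 11.37 and 11.23 against 12.34 and 12.28, 1.02 lower, and SM/J was above all 28 strains. These 2 genes were picked after their values were seen. Of 8 hypothalamic and 5 red blood cell markers, 7 and 3 had a probe set with a name of its own, and all of these were below the level tested.

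**Figure D4:**
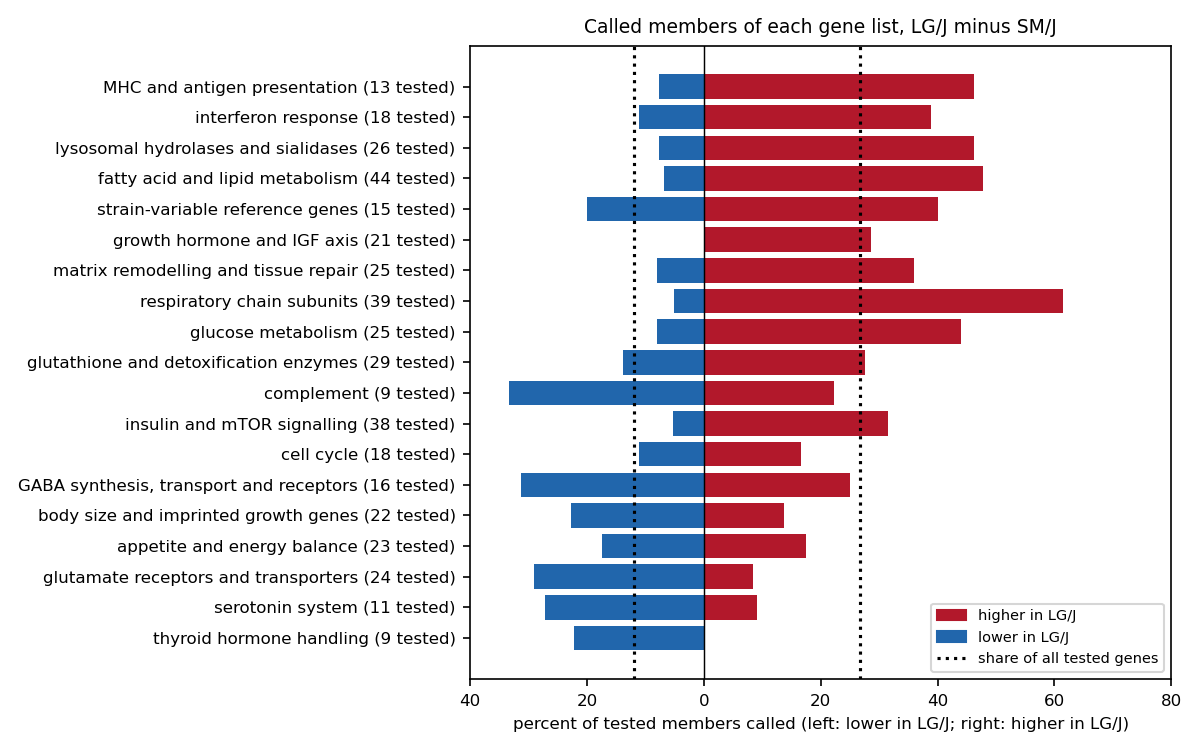
Percent of the tested members of each gene list called higher (right, red) or lower (left, blue) in LG/J than in SM/J, with dotted lines at the 26.7% and 12% of all tested genes. Respiratory chain subunits extend furthest right (24 of 39), and complement, GABA, glutamate and serotonin genes extend furthest left (27.3% to 33.3% lower). Body size, thyroid, strain-variable, appetite and detoxification genes also pass the dotted line on the left (13.8% to 22.7%).

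Among the 28 other strains, MRL/MpJ was nearest to LG/J. Over the 447 genes at least 2-fold apart, which the contrast itself chose, MRL/MpJ was nearer to LG/J than to SM/J for 345 (77.2%), CE/J for 305 (68.2%) and AKR/J for 278 (62.2%). The median strain was nearer LG/J for 46.3% and C57BL/6J, the lowest, for 35.8%. Over all 11886 tested genes, with each centred on the panel, Pearson's r of MRL/MpJ with LG/J was 0.53 and with SM/J -0.08. This is a description across genes, which are not independent replicates. MRL/MpJ and LG/J differed at 714 genes, rank 433 of 435 pairs.

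**Figure D5:**
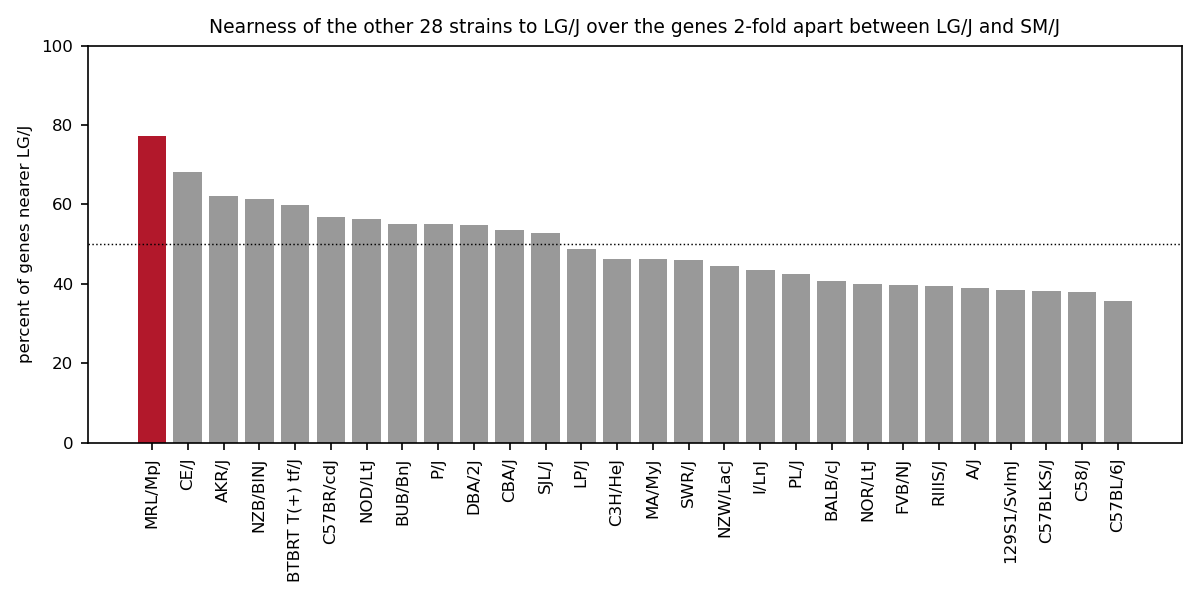
Percent of the 447 genes at least 2-fold apart between LG/J and SM/J for which each of the 28 other strains (horizontal axis) was nearer LG/J than SM/J, with a dotted line at equal nearness. MRL/MpJ (red) stands highest at 77.2% and C57BL/6J lowest at 35.8%.

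Some of the large differences lay side by side in gene order. Of 442 genes at least 2-fold apart that could be placed by a RefSeq table, 55 (12.4%) fell in 26 runs of adjacent tested genes, while 7% of the other 11394 placed genes lay next to a gene at least 2-fold apart. Of the runs 14 pointed one way throughout and 12 both ways, and 57.5% of all adjacent pairs of tested genes had the same sign. Besides Alad with Hdhd3 and Gm13306 with Gm21953, Zfp945 and Zfp551 each had a lower neighbour. The aldehyde oxidase genes Aox1 (1.23 higher), Aox3 (1.41 higher) and Aox4 (2.60 lower) formed 1 of the 3 runs of 3 genes. The files name no build, so no coordinates are given.

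The fluoxetine response was compared between the strains last. The response, fluoxetine minus water, had a median size of 0.09 in both LG/J and SM/J, as in the median of the other strains, and reached 2-fold for 22 genes in LG/J and 81 in SM/J, where the others spanned 16 to 417 with a median of 43.5. The difference of the 2 responses was judged against the spread of responses over the other 28 strains, in a test added after the data were seen. It was called for 2 genes, Nsun3 and Mmut. Of the 11886 genes tested, 468 had an unadjusted p under 0.05, less than the share of 0.05 that this cut would pass with no differences. With no filter on low values the called count was 311, while the estimate for Nsun3 stayed at -1.83. With 1 array per strain and treatment, this takes the other strains' spread as the error of each response.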

How the data were processed

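RNA from the cortex was hybridised to 1-colour Affymetrix arrays, 60 in all. The deposited values are intensities on a linear scale that the authors made with GCRMA, per the submitters' processing notes (version not given). They were put on a log2 scale here with no pseudocount, since the deposited table has no value under 4.21. Probe sets with 1 gene symbol were used, and the 1 with the highest mean stood for its gene (18193 genes). Genes with a log2 value of at least 4 in 6 or more arrays were tested (11886). limma 3.58.1 in R 4.3.3 fitted strain and treatment to all 60 arrays, with 29 residual degrees of freedom, two-sided tests and Benjamini-Hochberg adjusted p under 0.05. Errors are standard errors of that fit. Each array is 1 pool of 3 mice, and the 2 arrays of a strain differ in treatment, so no group has repeats of 1 condition.

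The LG/J minus SM/J fit of 11886 genes was tested on simulated data with LG/J set equal to SM/J. It recovered 66%, 94%, 100% and 100% of 50 genes each changed by 0.5, 1, 2 and 3 on the log2 scale. Of 11686 unchanged genes it called 11. The simulated noise was drawn independently for each gene and array, so it held no shift shared by genes of an array. The 11 calls are therefore not the error rate of the real comparison.

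Genes named by rule are the 15 largest called differences each way and a small fixed set of growth and strain-marker genes. Called members of the gene lists other than cell type markers were added, up to 8 for growth lists and 4 for others, smallest p first. Other genes are mentioned beside them, among them cell type markers, further glutamate genes and neighbours in gene order. The comparison and the lists were chosen with earlier results of these data known. The response test, the counts of each strain against the other 29, the centring of arrays and the meningeal covariate were added after the data were seen. No scan date or other batch was used, since none was among the sources here.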

Additional observations from a re-analysis of the deposited data

Results flagged for a closer look

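The fluoxetine responses of LG/J and SM/J differed by a limma test of the difference itself for 2 genes, in a test added after the data were seen. Nsun3, a methyltransferase of a mitochondrial transfer RNA, read 7.07 on water and 5.11 on fluoxetine in LG/J, and 7.20 and 7.07 in SM/J. The response was -1.96 in LG/J and -0.13 in SM/J, a difference of -1.83 (adjusted p = 0.00111), and the 28 other strains spanned -0.30 to 0.70. Its other 3 probe sets lay between 2.07 and 2.16 in all 4 arrays. Mmut, the mitochondrial enzyme methylmalonyl-CoA mutase, read 6.15 and 7.14 in LG/J and 9.67 and 9.68 in SM/J, a difference of responses of 0.98 (adjusted p = 0.0239). Another of its probe sets read 9.75 and 9.79 in LG/J and 8.92 and 9.07 in SM/J, which reverses the strain difference and shows no response of that size. Each response rests on 1 array per treatment.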

How the results depend on the processing

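The count of 4602 genes was 3877 to 4648 under the other filters, the pseudocount of 16, the mean of all probe sets, quantile normalization, no treatment term and the trended robust fit. It was 3893 with centred arrays, where 1922 genes were higher in LG/J, and 3497 with the meningeal covariate. Of the genes first called, 69.4% were called again with the mean of all probe sets, 72.9% with centred arrays and 98.1% with no treatment term. The 4 arrays alone, with 1 residual degree of freedom, called 1186 genes, 661 higher and 525 lower. Leaving out 1 array gave 2741 to 3683 genes (1849 to 2484 higher and 892 to 1199 lower), 1355 to 4292 for LG/J against the 28 strains and 1018 to 2609 for SM/J, lowest for SM/J without its own fluoxetine array and for the others without that of LG/J, where the lone array is assumed to vary like the other strains. Genes whose fluoxetine response differed numbered 311 with no filter, 1 with the pseudocount and 1 with the mean of all probe sets (Mmut then had 0.84, adjusted p = 0.136, and 0.29, adjusted p = 1). The cause of these changes was not tested.

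The rule for named genes gave 115 called genes, and other genes mentioned in the text are not in these counts. Of the 115, 59 kept call and direction under all 14 alternatives, and 2 (Gsta2 and Smpdl3b) did so under the 13 that tested them. The call was lost under at least 1 alternative by 53, of which 47 lost it with the 4 arrays alone. With the mean of all probe sets 3 reversed, Prkaa2 to -0.55, Pik3ca to -0.34 and Peg3 to -0.50, and Igfbp5 (0.40), Gnas (0.12), Npr3 (-0.30), Ndn (-0.07), Gsto1 (-0.16), Atp5a1 (0.13), Cr1l (0.18), Gad1 (-0.08) and Slc32a1 (0.08) were not called. Neu1 was called there (0.40). No paired analysis was possible because the replicate number of a strain is its treatment, which the model already holds as a term. Values near the lowest of the table have no order.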
